A study of Mus musculus with 6 samples.

Results

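Lipid droplet proteins were described across C3H10T1/2 adipocytes in which Ybx1 had been knocked down. The set comprised 9 genes, chosen by symbol: the perilipins Plin1, Plin2, Plin3, Plin4 and Plin5, and Cidec, Bscl2, Fitm2 and Hilpda. All 9 were among the 16423 genes of the deposited table, and 8 reached the testing minimum, an average of 1 FPKM (reads scaled by gene length and library size) over all libraries. The line C3H10T1/2 is of mouse mesenchymal origin and can be turned into adipocytes. Both groups were differentiated alike, first for 2 days with a cocktail of isobutylmethylxanthine, dexamethasone, insulin, triiodothyronine (1 nM), indomethacin and rosiglitazone (1 µM), then for another 2 days with triiodothyronine, insulin and rosiglitazone. On day 4 the siYBX1 cells (genotype label YBX1 knockdown) received siRNAs against Ybx1 and the siNC cells (genotype label WT) a control siRNA, and RNA was taken 48 h later, in 3 libraries per group. Both groups were therefore exposed to rosiglitazone, an agonist of PPARγ. Nothing in the labels ties the replicates to different cultures, and a p-value here covers the spread between libraries alone, which may be technical.

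A lipid droplet is a core of triglyceride and sterol esters under a single layer of phospholipid, and proteins on that layer decide how readily lipases reach the core. Perilipins are the main coat proteins: Plin1 belongs to adipocytes and holds back lipolysis until it is phosphorylated, Plin2 and Plin3 occur in most cell types, Plin4 coats nascent droplets in adipocytes, and Plin5 is found in oxidative tissues. Seipin (the product of Bscl2) and Fitm2 act where droplets form at the endoplasmic reticulum, Cidec drives the transfer of lipid between touching droplets, and Hilpda inhibits the lipase ATGL.

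Ybx1 stood at 62.9 ± 4.50 FPKM in siYBX1 and 133 ± 2.98 FPKM in siNC (SD, n = 3 each), so 47.3% of the control level remained. Library totals behind the FPKM values were 31957411 to 35410308 reads in siYBX1 and 34207232 to 35299269 reads in siNC. The 8 adipocyte markers with values summed to 2607 to 3052 FPKM in siYBX1 and 2111 to 2967 FPKM in siNC, with Cebpa and Retn below 1 FPKM. Of 7 brown adipocyte markers Dio2, Ppargc1a, Prdm16 and Elovl3 averaged below 1 FPKM. Library siNC replicate 1 stood apart from the other controls, with a chi-square per gene of 23.2 and 19.9 against them and 4.64 between those 2 libraries. The fold changes of Plin1, Plin2, Plin4, Cidec and Hilpda, the perilipin share differences and the ratio of Plin2 to Plin1 are given with and without it.

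Upstream sequences are shown for the 3 genes that passed the test described next, Plin2, Plin4 and Bscl2, because YBX1 was named for binding the Y box, a promoter element that holds the letters CCAAT. Each is the 250 bases before a RefSeq transcript start (build GRCm38.p6, read 5′ to 3′ on the gene's strand), and capitals mark CCAAT or its reverse complement ATTGG. They lie at chr4:86670060-86670309 on the minus strand for Plin2, at chr17:56109783-56110032 on the minus strand for Plin4 and at chr19:8837217-8837466 on the plus strand for the first of the Bscl2 starts.
Plin2: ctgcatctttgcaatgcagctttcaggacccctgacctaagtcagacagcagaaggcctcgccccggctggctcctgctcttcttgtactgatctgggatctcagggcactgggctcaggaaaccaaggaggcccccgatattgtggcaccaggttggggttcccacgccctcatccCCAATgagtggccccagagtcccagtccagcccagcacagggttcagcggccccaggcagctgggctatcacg
Plin4: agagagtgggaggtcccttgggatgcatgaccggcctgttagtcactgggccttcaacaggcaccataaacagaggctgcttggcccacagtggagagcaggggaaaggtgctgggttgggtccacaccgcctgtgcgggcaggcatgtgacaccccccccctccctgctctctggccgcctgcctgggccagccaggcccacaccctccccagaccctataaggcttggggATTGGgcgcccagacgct
Bscl2: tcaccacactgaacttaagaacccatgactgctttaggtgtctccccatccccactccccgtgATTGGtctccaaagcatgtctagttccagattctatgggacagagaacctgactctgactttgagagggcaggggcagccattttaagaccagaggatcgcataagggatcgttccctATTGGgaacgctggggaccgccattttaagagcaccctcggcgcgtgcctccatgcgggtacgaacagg
The motif begins 73 bases before the start in Plin2, 18 bases before it in Plin4, and 187 and 69 bases before it in Bscl2. At least 1 window of 5 of the 9 genes held it, those 3 with Plin3 and Plin5, against 37.5% of 27025 genes with such windows. Counted by window, 5 of the 14 windows of the 9 genes held it, against 33.8% of 32851 windows, and the other 2 Bscl2 windows had no match. A match of 5 letters is a description and not evidence of binding. Plin1, Cidec, Fitm2 and Hilpda had no match in these windows. The letters ACGTG, 1 form of the hypoxia core, were on either strand in a Hilpda window alone among the 9, against 18.5% of all genes. The form GCGTG was not counted, so a hypoxia core in the other genes is not excluded.

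Plin2 was the most abundant of the 9 transcripts in every library. By mean FPKM over all libraries the order was Plin2, Cidec, Plin1, Plin4, Plin3, Fitm2, Hilpda, Bscl2 and Plin5, with Plin2 at rank 132 of all genes and Bscl2 at rank 3982. Since FPKM is scaled by gene length, these levels can be set against each other. Within each group every gene's lowest library lay above the highest library of the next gene in that order, except for Hilpda and Bscl2 in siNC, whose libraries overlapped (17.6 to 23.0 FPKM for Hilpda, 15.8 to 18.8 FPKM for Bscl2). The narrowest separation otherwise was that of Plin4 and Plin3 in siYBX1, where the lowest Plin4 value was 66.7 FPKM and the highest Plin3 value 63.9 FPKM.

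Levels in siYBX1 were then tested against siNC to ask which of these transcripts differ when Ybx1 is reduced. Of the 8 tested genes 1 rose, Plin2, and 2 fell, Plin4 and Bscl2, at an adjusted p below 0.05 (limma on log2(FPKM + 1), Benjamini-Hochberg over all 10341 tested genes). Of all tested genes 20.6% passed, 9.54% higher and 11.1% lower, and the count of 3 of 8 is a description beside that share. With TPM 5 of the 8 passed against 21.6% of all genes, with quantile normalization 5 against 19.6%, and with no filter on low values 1 against 7.56%. The count was 1 without siYBX1 replicate 2, against 12.6% of all genes, and 4 without siNC replicate 1, against 19.6%. Of all calls 46.3% were higher, and 29.6% with TPM. The median log2 fold change was -0.12 for the 8 genes and -0.01 for all tested genes. The groups did not overlap for 4 of the 8 genes (Plin1, Plin2, Plin4 and Bscl2), against 40.9% of all tested genes. All changes were modest: the median absolute log2 fold change of all genes that passed was 0.29, and 36.7%, 63.1% and 22.7% of them changed more than Plin2, Plin4 and Bscl2. In bulk RNA fewer cells of a type and less RNA per cell cannot be told apart.

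**Figure D1:**
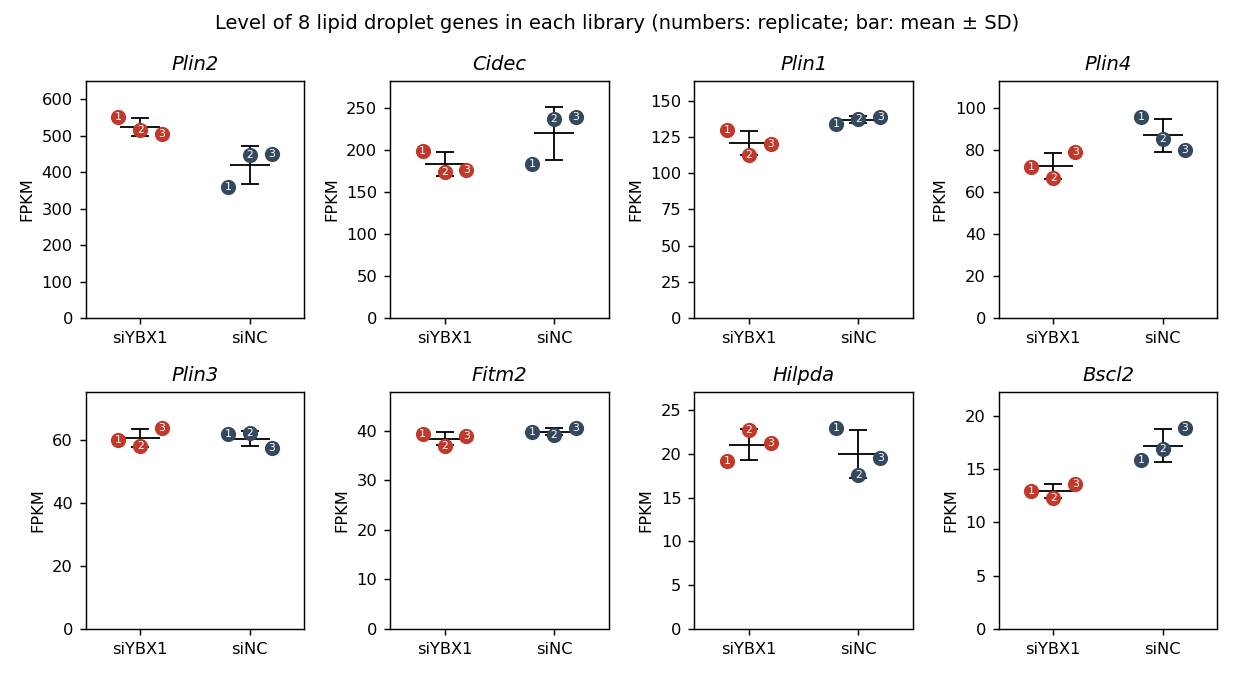
FPKM (y axis, from 0) of the 8 tested genes in the siYBX1 libraries (red, left) and the siNC libraries (dark, right), with numbers for replicates and bars for mean ± SD. Plin2 is higher in every siYBX1 library, Bscl2, Plin4 and Plin1 are lower in every siYBX1 library, and the others overlap.

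Plin2, the coat protein of droplets in most cells, reached 550, 516 and 503 FPKM in siYBX1 replicates 1 to 3 and 358, 447 and 451 FPKM in siNC replicates 1 to 3. All siYBX1 libraries lay above all siNC libraries, and siNC replicate 1 was the lowest of the 6. Means were 523 ± 24.3 FPKM in siYBX1 and 419 ± 52.3 FPKM in siNC (SD, n = 3 each), at 125% of the control level (log2 fold change 0.33, SE 0.09, 95% confidence interval 0.13 to 0.52, adjusted p = 0.0250, limma). With 45410 to 49447 reads in siYBX1 and 33715 to 43056 reads in siNC, counting error was 0.480% of an average library's value, far below the spread between libraries. The log2 fold change was 0.22 without siNC replicate 1 (adjusted p = 0.0206, limma). The call was lost without siYBX1 replicate 1 (adjusted p = 0.0877), replicate 2 (0.0679) or replicate 3 (0.0510). It was also lost with no filter on low values (0.108) and with the replicate number as a block (adjusted p = 0.0574, limma).

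Plin3, the other widely expressed perilipin, had 60.1, 58.2 and 63.9 FPKM in siYBX1 and 61.8, 62.1 and 57.6 FPKM in siNC. The groups overlapped, and the means of 60.7 ± 2.89 FPKM in siYBX1 and 60.5 ± 2.52 FPKM in siNC differed by less than the spread between replicates (adjusted p = 0.962, limma). Its 95% confidence interval on the log2 scale ran from -0.12 to 0.13, which leaves out a change of the size estimated for Plin2.

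Plin1, the adipocyte perilipin that guards stored triglyceride, had 129, 113 and 120 FPKM in siYBX1 and 134, 137 and 139 FPKM in siNC. Every siYBX1 library lay below every siNC library, with siYBX1 replicate 1 the closest. Means were 121 ± 8.42 FPKM in siYBX1 and 137 ± 2.36 FPKM in siNC (SD, n = 3 each), at 88.3% of the control level. The log2 fold change of -0.18 (SE 0.06, 95% confidence interval -0.31 to -0.05) just missed the threshold (adjusted p = 0.0537, limma). Leaving out siYBX1 replicate 1 (-0.23, adjusted p = 0.0390) or siNC replicate 1 (-0.19, 0.0416) brought it past the threshold. So did TPM (adjusted p = 0.0142), quantile normalization (-0.27), a correction for gene length (0.0399) and voom (0.0376).

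Plin4, an adipocyte perilipin of nascent droplets, had 72.1, 66.7 and 79.1 FPKM in siYBX1 and 95.8, 85.7 and 80.1 FPKM in siNC. The groups did not overlap, but siYBX1 replicate 3 came within 1 FPKM of siNC replicate 3. Means were 72.6 ± 6.25 FPKM in siYBX1 and 87.2 ± 7.99 FPKM in siNC (SD, n = 3 each), a log2 fold change of -0.26 (SE 0.08, 95% confidence interval -0.43 to -0.09, adjusted p = 0.0388, limma). The call was lost without siYBX1 replicate 1 (adjusted p = 0.0997), siYBX1 replicate 2 (-0.20, adjusted p = 0.141), siNC replicate 1 (-0.19, adjusted p = 0.0734) or siNC replicate 2 (adjusted p = 0.0646). It was also lost with no filter (0.128), without the intensity trend (0.0530) and with the replicate number as a block (adjusted p = 0.0664, limma). Plin4 was the longest of the 8 by recovered length and lay in the longest 20% of tested genes, whose median log2 fold change was -0.07, and after the length correction it stood at -0.20 (adjusted p = 0.0631, limma).

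Plin5, the perilipin of oxidative tissues, was close to undetected. It had 1, 1 and 3 reads in siYBX1 and 1 read in each siNC library, so no fold change can be read from it.

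Within the perilipin family the Plin2 share was higher in every siYBX1 library than in any siNC library, but no test of a share could pass with 3 against 3 libraries. The summed perilipin level was 777 ± 30.7 FPKM in siYBX1 and 703 ± 46.0 FPKM in siNC (SD, n = 3 each). Plin2 made up 67.8%, 68.5% and 65.7% of it in siYBX1 and 55.1%, 61.0% and 62.0% in siNC. Plin1 made up 15.5% ± 0.510 in siYBX1 and 19.5% ± 0.993 in siNC, and Plin4 made up 9.35% ± 0.847 in siYBX1 and 12.5% ± 1.99 in siNC. The differences were 7.93 percentage points for Plin2, -3.98 for Plin1 and -3.13 for Plin4, and without siNC replicate 1 they were 5.80, -3.41 and -2.00. For these 3 genes the groups did not overlap, whereas the Plin3 shares did, at 7.82% ± 0.476 in siYBX1 and 8.64% ± 0.803 in siNC. A share of a fixed sum must fall in one gene when it grows in another, so these are not separate results. The ratio of Plin2 to Plin1, which no library scaling can move, was 4.25, 4.58 and 4.20 in siYBX1 and 2.67, 3.25 and 3.25 in siNC. On the log2 scale it was 0.51 higher in siYBX1, a fold of 1.43 (exact two-sided permutation test, p = 0.1, the smallest that 3 against 3 libraries allow). Without siNC replicate 1 that difference was 0.42.

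**Figure D2:**
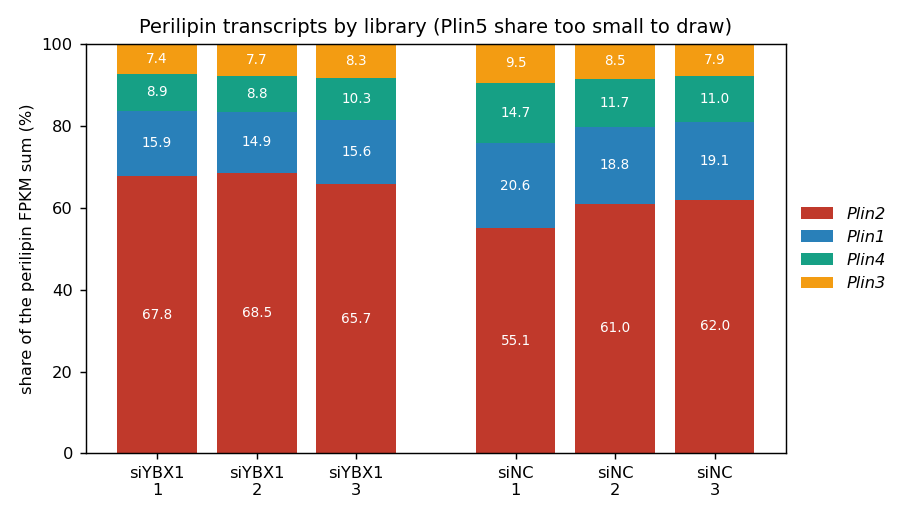
Share of the summed perilipin FPKM (y axis, percent) taken by Plin2, Plin1, Plin4 and Plin3 in each library, with siYBX1 on the left and siNC on the right. Plin2 takes 65.7% to 68.5% in siYBX1 and 55.1% to 62.0% in siNC.

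Cidec, the adipocyte protein through which droplets enlarge, had 199, 174 and 177 FPKM in siYBX1 and 184, 237 and 239 FPKM in siNC. The groups overlapped through siNC replicate 1 alone, which lay far below the other controls and below siYBX1 replicate 1. Means were 183 ± 13.9 FPKM in siYBX1 and 220 ± 31.4 FPKM in siNC (SD, n = 3 each), and the log2 fold change of -0.25 (SE 0.10, adjusted p = 0.0885, limma) did not pass. Without siNC replicate 1 it was -0.38 and passed (adjusted p = 0.00231, limma). With TPM (-0.31, adjusted p = 0.0243) and quantile normalization (-0.35, adjusted p = 0.0163) Cidec also passed. The summed adipocyte markers were lowest in siNC replicate 1 too, at 2111 FPKM against 2967 and 2925 FPKM in siNC replicates 2 and 3. Most of that sum came from Fabp4 and Adipoq, which averaged 1481 and 617 FPKM in siNC. Plin4 went the other way, at 95.8 FPKM in siNC replicate 1 against 85.7 and 80.1 FPKM. Plin1 had 134 FPKM there against 137 and 139 FPKM. The part of the lower marker sum of siNC replicate 1 in the Cidec and Plin2 values was not tested.

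Bscl2, which encodes seipin, showed the firmest change of the 9. It had 12.9, 12.3 and 13.6 FPKM in siYBX1 and 15.8, 16.9 and 18.8 FPKM in siNC, with no overlap between groups. Means were 12.9 ± 0.648 FPKM in siYBX1 and 17.2 ± 1.54 FPKM in siNC (SD, n = 3 each), so 75.2% of the control level remained (log2 fold change -0.38, SE 0.07, 95% confidence interval -0.54 to -0.23, adjusted p = 0.00441, limma). The fall passed under all 16 alternative settings, with log2 fold changes between -0.45 and -0.32 and adjusted p-values between 0.00130 and 0.0335 (limma). Behind these values were 1344 to 1480 reads in siYBX1 and 1793 to 2171 reads in siNC. In the GENCODE vM21 annotation 398 exonic bases of Bscl2 are shared with Gng3 on the opposite strand, and the labels do not state strandedness. On the same strand 239 bases are shared with AC129217.1, not analysed here. Gng3 itself averaged 0.0522 FPKM in siYBX1 and 0.0169 FPKM in siNC.

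Fitm2, which binds triglyceride and takes part in the budding of droplets, had 39.3, 36.9 and 39.1 FPKM in siYBX1 and 39.8, 39.2 and 40.6 FPKM in siNC. The groups overlapped, and its log2 fold change of -0.05 had a 95% confidence interval of -0.16 to 0.06 (adjusted p = 0.491, limma). It shares 227 exonic bases with 2310001K24Rik on the opposite strand, not analysed here. Seipin and Fitm2, both proteins of droplet formation, had intervals that did not overlap, although the difference between them was not tested. Hilpda, the hypoxia-inducible inhibitor of ATGL, had 19.2, 22.8 and 21.3 FPKM in siYBX1 and 23.0, 17.6 and 19.6 FPKM in siNC. Those values overlapped fully (log2 fold change 0.08, 95% confidence interval -0.13 to 0.28, adjusted p = 0.591, limma), and the estimate changed sign without siNC replicate 2 (-0.01) and after the length correction (-0.02). Without siNC replicate 1 the Hilpda estimate was 0.17 (adjusted p = 0.124, limma). Hilpda had the fewest reads of the 8, at 679 to 891 in siYBX1 and 664 to 884 in siNC.

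**Figure D3:**
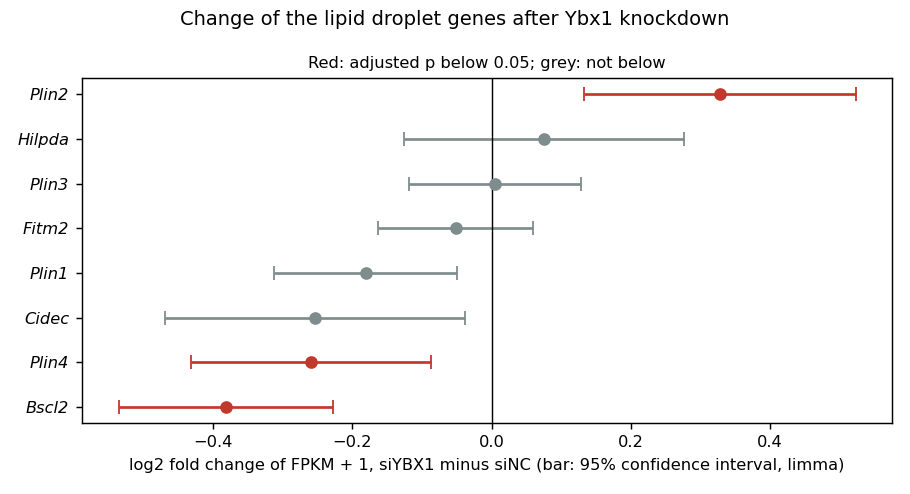
Log2 fold change of FPKM + 1, siYBX1 minus siNC (x axis), for the 8 tested genes, with 95% confidence intervals from limma. Red marks an adjusted p below 0.05: Plin2 at 0.33, Plin4 at -0.26 and Bscl2 at -0.38.

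The 8 tested genes differed in how they varied across libraries. Over the 6 libraries log2(FPKM + 1) of Plin2 and Plin4 had a Pearson r of -0.90, Plin1 and Fitm2 had 0.86, Plin1 and Bscl2 0.85, and Cidec and Hilpda -0.84. These values mix the difference between groups with the spread inside them and are given as a description. They were not computed without siNC replicate 1, which had the lowest Plin2 and the highest Plin4 and Hilpda of the 6 libraries. Among 7341 genes averaging 5 FPKM or more, those most like Plin2 over the 6 libraries were Tm2d2 (r = 0.997), Laptm4b (0.996) and Ptgfr (0.995). Those most like Plin4 were Col15a1 (0.998), Golgb1 (0.997) and Xdh (0.995), and those most like Bscl2 were Isoc1 (0.996), Ganc (0.993) and Rab7 (0.989). The highest of so many correlations over 6 libraries lie near 1 by selection, so they are a description only. Ptgfr (adjusted p = 0.0573, limma) and Rab7 (log2 fold change -0.07, adjusted p = 0.363, limma) did not pass themselves, and the other listed genes did.

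Other lipid droplet genes were taken from lists arranged by role. Of 46 tested genes in 5 lists 5 rose and 8 fell, against the same 9.54% and 11.1% of all genes, with a median log2 fold change of -0.02. The total of 13 became 8 without siYBX1 replicate 1, siYBX1 replicate 2, siNC replicate 2 or siNC replicate 3, where the share of all genes passing was also lower, at 11.6%, 12.6%, 16.5% and 13.8% in that order. Among 6 lipases and regulators Pnpla2 alone fell. Pnpla2 encodes ATGL, the first lipase of triglyceride breakdown and the target of Hilpda, and it had 308, 288 and 296 FPKM in siYBX1 and 428, 371 and 405 FPKM in siNC (log2 fold change -0.43, SE 0.07, adjusted p = 0.00189, limma). Its coactivator Abhd5 (-0.02), its inhibitor G0s2 (0.17), the hormone-sensitive lipase Lipe (0.03) and the monoglyceride lipase Mgll (-0.02) did not pass, with adjusted p-values between 0.290 and 0.886 (limma); these 4 were named after their values were seen.

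Among 11 triglyceride synthesis genes Lpin1, a phosphatidate phosphatase, alone fell, at 11.2 ± 0.115 FPKM in siYBX1 and 15.7 ± 1.51 FPKM in siNC (SD, n = 3 each; log2 fold change -0.45, adjusted p = 0.00184, limma). Of all tested genes 11.1% fell and 9.54% rose. In this list 2 fell without siYBX1 replicate 1, and 2 fell and 1 rose without siNC replicate 1. Of all 10341 tested genes 604 fell without siYBX1 replicate 1, and 1056 fell and 970 rose without siNC replicate 1. Dgat2, the last enzyme of triglyceride synthesis and named after its values were seen, averaged 240 ± 22.6 FPKM in siYBX1 and 283 ± 20.3 FPKM in siNC (adjusted p = 0.0504, limma) and passed under 7 of the 16 alternatives. Of the 3 tested partners of Cidec, Fitm2 and seipin none passed, against 20.6% of all tested genes. Without siNC replicate 3, 1 of them did, against 13.8% of all tested genes. Cidea, the close relative of Cidec in brown fat, averaged 19.6 ± 2.83 FPKM in siYBX1 and 21.2 ± 2.08 FPKM in siNC. Tmem159, which encodes the seipin partner promethin, averaged 18.2 ± 0.708 FPKM in siYBX1 and 19.0 ± 0.869 FPKM in siNC (adjusted p = 0.515, limma). Fitm1, the muscle relative of Fitm2, had 0, 0 and 1 read in siYBX1 and 0, 2 and 0 reads in siNC.

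Of 16 tested genes of the droplet surface and its traffic 5 rose and 1 fell, against 9.54% and 11.1% of all tested genes. The list's median log2 fold change was 0.09. Cav1, the caveolar coat protein that also reaches droplets, had 110 ± 0.207 FPKM in siYBX1 and 82.9 ± 2.22 FPKM in siNC (log2 fold change 0.40, adjusted p = 0.000522, limma). Snap23, a membrane fusion SNARE that has been linked to droplet growth, had 22.02 ± 0.210 FPKM in siYBX1 and 17.4 ± 0.668 FPKM in siNC (0.33, adjusted p = 0.00232). Hsd17b11, a droplet-bound dehydrogenase, Ubxn4 and the small GTPase Rab8a, named after their values were seen, rose by 0.21, 0.20 and 0.17 on the log2 scale (adjusted p between 0.0260 and 0.0386, limma). Under the 16 alternatives Hsd17b11 and Ubxn4 passed in 9 each and Rab8a in 4. Zfyve1, a droplet-associated zinc finger protein, fell by 0.22 (adjusted p = 0.0329, limma) and passed under 8 of the 16 alternatives. With a library left out it passed only without siYBX1 replicate 3. In this list 3 rose without siYBX1 replicate 1 or 2, and 2 rose without siYBX1 replicate 3, without siNC replicate 3 or with TPM. Of all 10341 tested genes 595, 547, 777, 678 and 662 rose under these settings, in that order.

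Of 10 tested genes of droplet contact sites and lipid transfer 5 fell and none rose, against 11.1% and 9.54% of all tested genes. The list's median log2 fold change was -0.19. Miga2, which links mitochondria to droplets, had 16.3 ± 0.350 FPKM in siYBX1 and 20.2 ± 1.10 FPKM in siNC (-0.29, adjusted p = 0.00561, limma). Osbpl2, an oxysterol-binding protein relative, had 15.2 ± 0.468 FPKM in siYBX1 and 18.3 ± 0.340 FPKM in siNC (-0.25, adjusted p = 0.00762). Osbpl8, Vps13c and Spast, named after their values were seen, were at -0.25, -0.25 and -0.21 (adjusted p = 0.0205, 0.0301 and 0.0498, limma). Osbpl8 passed under 12 and Vps13c under 8 of 16 alternatives, and Spast under 4 of 15. Their recovered lengths were 7915, 17783 and 6873 bases, above the 6567 bases of Plin4. They therefore lay, with Plin4, in the longest 20% of tested genes, whose median log2 fold change was -0.07. Miga2 and Osbpl2 were shorter, at 3649 and 4592 bases. The part of length in these falls was not tested. After the length correction 3 fell and 1 rose, with a median of -0.14, and 2 fell without siYBX1 replicate 1 or without siNC replicate 2. For the same list 3 fell without siYBX1 replicate 2 or without siNC replicate 3. Of all 10341 tested genes 604, 875, 759 and 750 fell in these fits with a library left out, in that order.

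**Figure D4:**
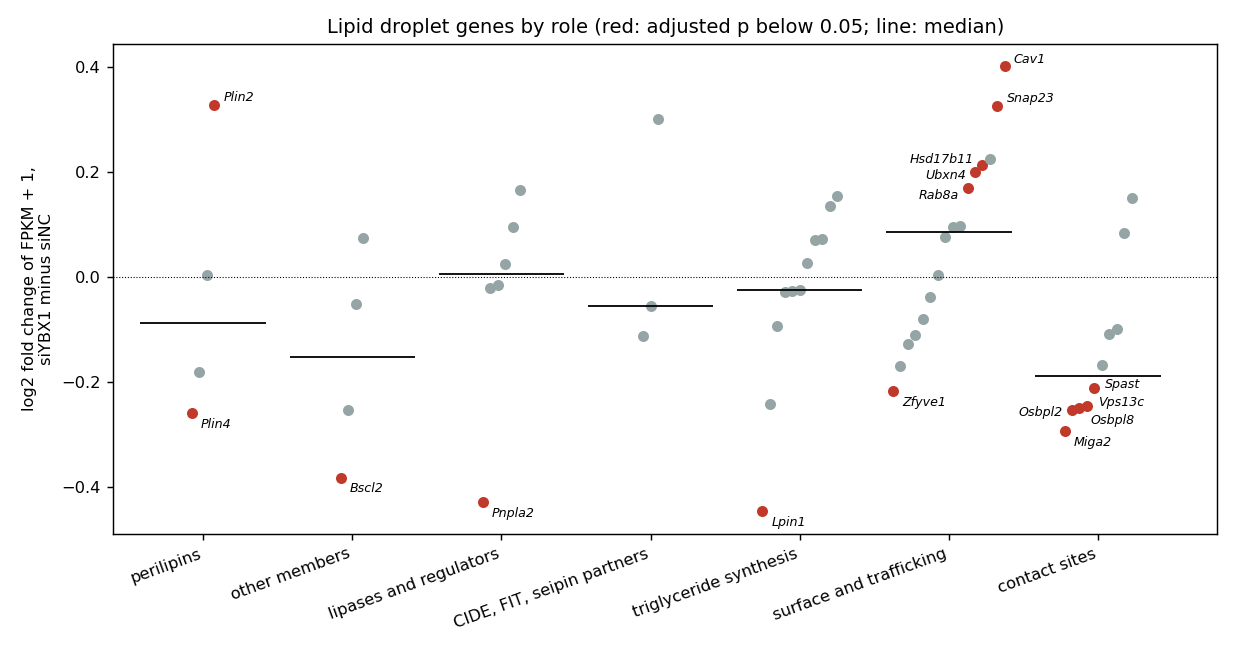
Log2 fold change of FPKM + 1, siYBX1 minus siNC (y axis), of the tested genes by role, members first, with red for an adjusted p below 0.05 and a line at each median. Contact site genes have a median of -0.19 and surface genes one of 0.09.

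Genes of the transcription factors that textbooks tie to these proteins were also counted. PPARγ, the receptor for rosiglitazone, is tied to Cidec and to perilipins, Plin2 among them. The hypoxia-inducible factors are tied to Hilpda and Plin2. The median log2 fold change of 13 tested PPAR target genes was 0.09, but -0.06 without siNC replicate 1, -0.01 without siYBX1 replicate 1 and -0.02 with quantile normalization. Of these genes 1 rose and none fell, against 9.54% and 11.1% of all tested genes. It was Angptl4, an inhibitor of lipoprotein lipase, at 116, 109 and 101 FPKM in siYBX1 and 78.6, 85.3 and 88.9 FPKM in siNC (0.36, SE 0.07, adjusted p = 0.00441, limma). Pparg itself averaged 92.4 ± 3.04 FPKM in siYBX1 and 87.4 ± 7.08 FPKM in siNC (adjusted p = 0.389, limma). None of 13 tested hypoxia-inducible genes passed, against 20.6% of all tested genes. Negative estimates were found for 11 of the 13, against 5458 of all 10341 tested genes. The median of this list was -0.13, but -0.02 without siNC replicate 1. Bnip3, a mitophagy receptor, averaged 268 ± 21.4 FPKM in siYBX1 and 293 ± 37.3 FPKM in siNC (SD, n = 3 each), with 336, 273 and 271 FPKM in siNC replicates 1 to 3. Ndrg1 averaged 107 ± 12.1 FPKM in siYBX1 and 131 ± 31.2 FPKM in siNC, with 167, 113 and 113 FPKM in siNC replicates 1 to 3. Without siNC replicate 1 their log2 fold changes were -0.02 for Bnip3 and -0.08 for Ndrg1, in place of -0.13 and -0.27. The count over both lists was 1 and reached 3 without siNC replicate 1, and 2 without siYBX1 replicate 2, siNC replicate 2 or siNC replicate 3. The share of all genes passing in those fits was 19.6%, 12.6%, 16.5% and 13.8%, in that order.

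Markers of other cell types are given beside these results. For comparison with the counts below, 20.6% of all tested genes passed, 9.54% higher and 11.1% lower. The summed level of 6 smooth muscle and myofibroblast markers was 2011 to 2110 FPKM in siYBX1 and 577 to 647 FPKM in siNC, with Myh11 and Cnn1 below 1 FPKM, and all 4 tested ones rose (Acta2, Tagln, Actg2 and Myl9; Acta2 and Myl9 named after their values were seen). The 7 preadipocyte and fibroblast markers with values summed to 497 to 519 FPKM in siYBX1 and 540 to 560 FPKM in siNC, and none of the 3 tested passed, among them Ly6a (log2 fold change -0.13) and Pdgfrb (-0.14). Most of that sum came from Ly6a, which averaged 449 FPKM in siYBX1 and 491 FPKM in siNC. Of these 3 markers 2 fell with TPM, 2 with quantile normalization and 1 with the length correction. Of all 10341 tested genes 1573, 1071 and 1057 fell under these settings, in that order. Of 6 tested adipocyte markers only Cfd, an adipocyte-secreted protease, passed (-0.32, adjusted p = 0.0136, limma). In that list 3 passed without siNC replicate 1, 2 without siYBX1 replicate 1 and none without siYBX1 replicate 3 or siNC replicate 3. Of all 10341 tested genes 2026, 1199, 1711 and 1428 passed in these fits, in that order. Of 3 tested brown adipocyte markers none passed, and Cox8b averaged 134 ± 36.2 FPKM in siYBX1 and 113 ± 16.7 FPKM in siNC. The macrophage markers Adgre1, Lyz2, Ptprc and Csf1r were below 1 FPKM, and Cd68 averaged 9.13 ± 2.17 FPKM in siYBX1 and 15.97 ± 7.33 FPKM in siNC (adjusted p = 0.0681). The part of these markers in the droplet gene values was not tested.

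**Figure D5:**
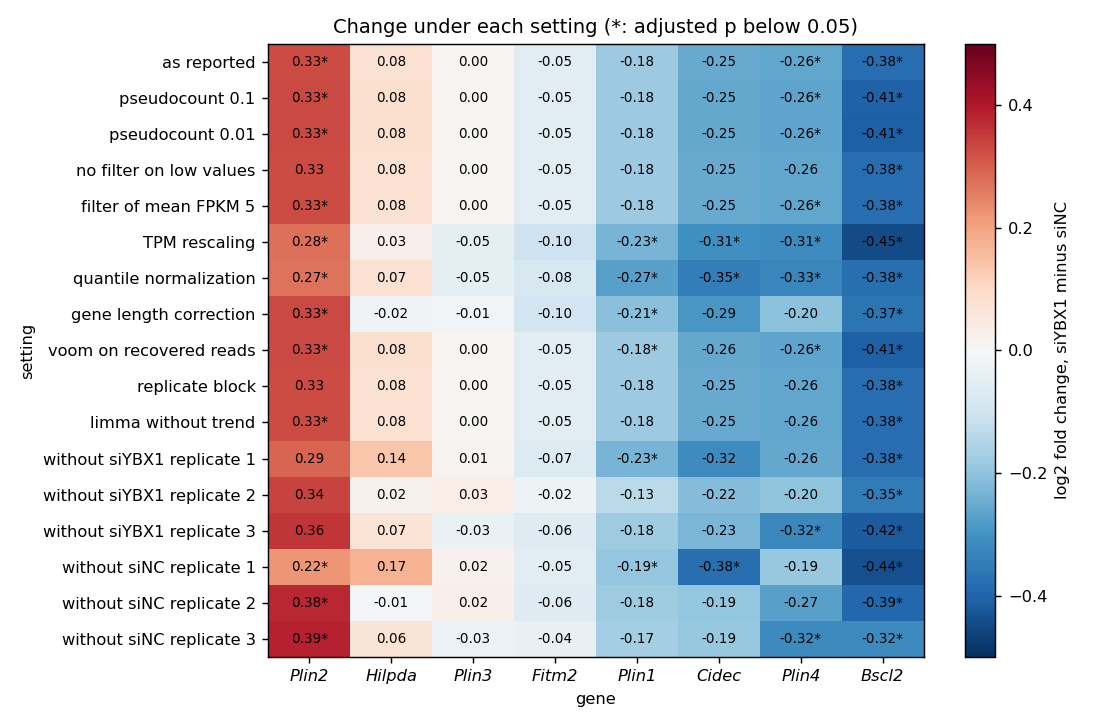
Log2 fold change, siYBX1 minus siNC (colour and number), of the 8 tested genes (columns) as reported and under 16 alternative settings (one per line), with a star for an adjusted p below 0.05. Bscl2 carries a star in every line, Plin2 in 11 and Plin4 in 8 of the 16 alternatives, and Plin3, Fitm2 and Hilpda carry none.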

How the data were processed

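Libraries were made from Trizol-extracted total RNA (1.3 µg), per the labels' protocols. Tools named in the submitters' processing notes are fastp, HISAT2 and HTSeq, with genome build GRCm39. Neither versions nor strandedness, nor the treatment of reads shared between similar genes, are given in the sources used here. The authors deposited 1 table of FPKM values, whose columns con and si were matched to siNC and siYBX1 by name and number.

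The FPKM values move in steps of 1 read. Library totals were estimated from genes whose merged exons fill their whole span in GENCODE vM21 (GRCm38, another build than the authors'), and the smallest length giving whole reads in all libraries (tolerance 0.02) was found for 16422 of 16423 genes. Such lengths come out too small where read numbers share a divisor. With these totals 1 read on 2 kb is worth 0.0141 to 0.0156 FPKM. Counting errors cover counting only.

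Genes averaging 1 FPKM or more were tested with limma 3.58.1 under R 4.3.3, two-sided, on log2(FPKM + 1), letting the variance follow the intensity and using no covariate, so fold changes of low genes are understated. The filter used the mean over all libraries, and no member passed it through 1 group only. The procedure was also run on simulated reads. That simulation gave every gene the same dispersion and held no outlying library, so it cannot vouch for the calls on these data. Alternatives were pseudocounts of 0.1 and 0.01, no filter or a minimum of 5 FPKM, TPM, quantile normalization, a loess correction for gene length (span 0.3), voom on recovered reads (mean of at least 10), a replicate block, no trend, and leaving out each library. Named genes were the members, Ybx1, and of each list the 2 largest rises and 2 largest falls that passed or, with none, the 2 most abundant, and for each member that passed the 3 genes most like it. The members and lists were chosen with earlier results of these data known. Promoter sequences are from RefSeq. Python 3.11.15, numpy 2.4.6, pandas 2.3.3 and scipy 1.17.1 were used.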

Additional observations from a re-analysis of the deposited data

How the results depend on the processing

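Bscl2 and Ybx1 passed under all 16 alternatives, Plin2 under 11 and Plin4 under 8, all with 1 direction. Plin1, not past the threshold as reported, passed under 6 and Cidec under 3. Of the members 3 passed as reported, 1 with no filter on low values, 5 with TPM and 5 with quantile normalization (Plin1 and Cidec added in both), and 1 to 4 with a library left out. Over all genes 2132 passed, 1241 of 16423 with no filter, and 1199 to 2026 with a library left out. Of droplet partner genes 13 passed, 6 with no filter, and 8 to 12 with a library left out. Of PPAR and hypoxia genes 1 passed, 4 with TPM or voom, 2 with quantile normalization, the length correction or the filter of 5 FPKM, and 1 to 3 with a library left out. The cause of these differences between settings was not tested.

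Plin3 was at 0.00 as reported and changed sign with TPM (-0.05, -0.0473 before rounding), quantile normalization (-0.0460), the length correction (-0.0134), without siYBX1 replicate 3 (-0.0317) and without siNC replicate 3 (-0.0297), with a range of -0.0317 to 0.0342 when a library was left out. Hilpda changed sign after the length correction (-0.0171) and without siNC replicate 2 (-0.0115), with a range of -0.0115 to 0.174. Neither passed anywhere.

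As shares of recovered reads, which favour long genes, the differences were -2.25 percentage points for Plin1 (-3.98 by FPKM) and -6.24 for Plin4 (-3.13 by FPKM). With a library left out the Plin2 share difference ran from 5.80 to 9.24 points, and the log2 ratio of Plin2 to Plin1 from 0.42 to 0.56.

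The labels do not say that a replicate number marks a shared culture, and same-numbered libraries did not deviate together (r = -0.31, -0.13 and -0.25 for numbers 1 to 3 over 10341 genes). With the replicate block 1 member passed (Bscl2, adjusted p = 0.00800, limma), 6 droplet partner genes and 1346 genes in all.

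Depth limits Plin5, at 1 to 3 reads, and Fitm1. For the other members counting error was smaller than the SD between libraries in both groups, except for Fitm2 in siNC.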
